A study of Mus musculus with 14 samples.

Results

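The genes described here are *Krt7*, *Krt8*, *Krt18*, *Krt19*, *Epcam*, *Cdh1* and *Kit*, 7 of the 20515 genes with a usable symbol in the deposited expression files. They were chosen by name, as keratins and adhesion or receptor genes that mark luminal epithelium, and all 7 were found in both files. Total RNA-seq was performed on mammary glands at day 10 of lactation (L10) from 2 samples, replicate 1 and replicate 2, of the genotype labelled WT_wTbrg4, taken here as 2 mice. These mice are heterozygous: each carries an intact *Wap* and *Tbrg4* allele and a Wap-Tbrg4 allele, in which a CRISPR-Cas9 deletion in C57BL/6 zygotes placed the *Wap* super-enhancer and promoter in front of the *Tbrg4* gene body. Their ages are not given in the sources used here, and ChIP-seq samples of the study and mice without the fusion allele are not analysed here. With 2 mice of a single genotype, no difference between genotypes can be tested, and the values below describe levels in this tissue and the spread between the 2 mice. Whole gland was used, so fewer cells of a type and less RNA per cell cannot be told apart.

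Keratins form intermediate filaments as obligate pairs of a type II and a type I chain. In simple epithelia the type II chains KRT8 and KRT7 pair with the type I chains KRT18 and KRT19, and these keratins mark the luminal cells of the mammary gland, whereas KRT5 and KRT14 mark the basal, myoepithelial layer. EPCAM is a transmembrane adhesion protein of epithelia, CDH1 (E-cadherin) joins neighboring epithelial cells through the catenins, and KIT is the receptor for stem cell factor, known in the gland as a marker of luminal progenitors and elsewhere of mast cells and melanocytes.

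The values are FPKM (fragments per kilobase of sequence, scaled between libraries) of exons and of introns, which the authors deposited with 1 decimal. They were generated with DESeq2, and how the libraries were scaled is not given in the sources used here. They are per length, so levels of different genes can be compared as far as length goes. GC content and sequence shared with other places in the genome, both described below, can still affect such comparisons. Without read counts the depth is unknown, and counting error has no interval here. The summed exon FPKM over genes with a symbol was 852961 in replicate 1 and 1788119 in replicate 2, but the median log2 ratio of replicate 2 to replicate 1 was -0.08 over the 9845 genes that averaged 1 FPKM or more in exons, termed expressed below. Rescaling both mice to the same sum would move this median to -0.90, and the ratios below are on the deposited scale.

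*Epcam* and *Krt18* were the most abundant of the 7 genes, and *Krt7* and *Kit* were near 0. In replicate 1 the exon FPKM of *Epcam* was 134.0 and in replicate 2 it was 112.0, averaging 123.0 ± 15.6 (SD, n = 2), rank 169 of 20515 genes. *Krt18* had 145.0 and 57.6, a mean of 101.3 ± 61.8 (SD, n = 2), rank 207. The range of *Krt18* spans that of *Epcam*, so their order was not resolved: *Krt18* was higher in replicate 1 and *Epcam* in replicate 2. *Krt8* had an exon FPKM of 31.4 and 14.6, a mean of 23.0 ± 11.9 (SD, n = 2), rank 1279. *Cdh1* had 12.1 and 14.6, a mean of 13.35 ± 1.77 (SD, n = 2), rank 2339. These genes met at 14.6 in replicate 2, so their order rests on replicate 1. *Krt19*, which encodes the smallest of the simple keratins, had 10.9 and 4.0, a mean of 7.45 ± 4.88 (SD, n = 2), and was below *Cdh1* in each mouse.

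*Krt7*, the second type II chain, was listed at 1.3 and 0.5, a mean of 0.9 ± 0.566 (SD, n = 2), rank 9946. *Kit* was listed at 0.2 and 0.3, a mean of 0.25 ± 0.0707 (SD, n = 2), rank 11880, and was the lowest of the 7 genes in each mouse. Since a deposited 0.2 can stand for any value within 0.05 of it, the ratio of *Kit* between the mice could lie anywhere from 1.0 to 2.33 from rounding alone. Of the 7 genes, 5 (*Epcam*, *Krt18*, *Krt8*, *Cdh1* and *Krt19*) were expressed, compared with 9845 of all 20515 genes. All 7 were chosen by name as luminal markers, so these levels do not test that label.

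**Figure D1:**
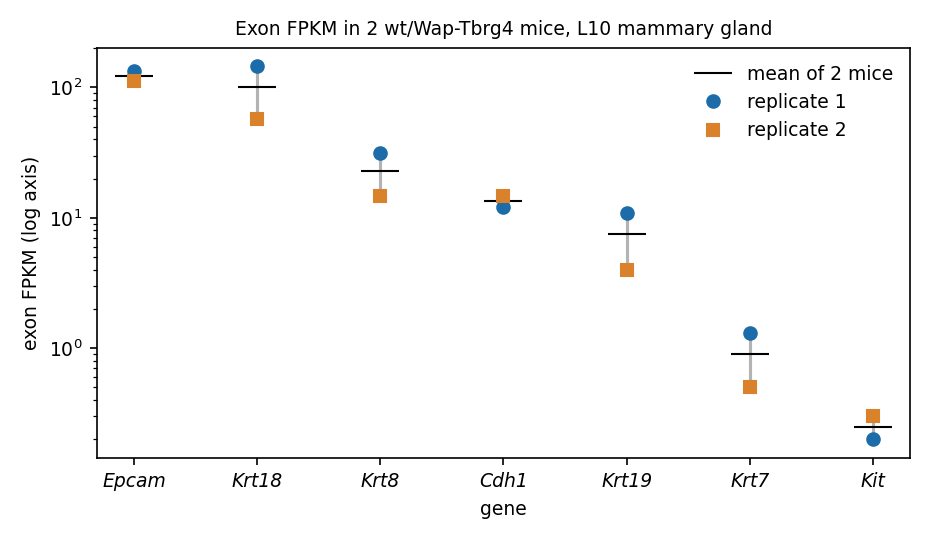
Exon FPKM (log axis) of the 7 genes in replicate 1 (circles) and replicate 2 (squares), with a dash at the mean of the 2 mice and a line joining the mice. *Epcam* and *Cdh1* lie close together in the 2 mice, *Kit* is at 0.2 and 0.3, and *Krt18*, *Krt8*, *Krt19* and *Krt7* are each lower in replicate 2.

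Processed copies of *Krt8* and *Krt18* lie elsewhere in the genome, and how reads with more than one place were treated is not given in the sources used here. On GRCm38 (mm10), *Krt8* lies at chr15:101996711-102004342 on the minus strand with 9 exons, and *Krt18* at chr15:102028216-102032026 on the plus strand with 7 exons. The coding sequence of *Krt8* (1473 bases) has a near-identical copy without introns on chromosome 7, from 23357125 to 23358582, aligned over 100% of its length at an identity of 97.6%. RefSeq annotates this copy as the pseudogene *Krt8-ps*, within an intron of *Nlrp4e*. *Krt18* (1272 coding bases) has a more diverged copy on chromosome 13, from 117457834 to 117459075, aligned over 99.9% of its length at 90.3% identity and annotated as the pseudogene *Gm5200*. No copy covering at least 50% of the coding sequence was found for *Krt7*, *Krt19*, *Epcam*, *Cdh1* or *Kit*. At an identity of at least 95%, 1 of the 7 genes, *Krt8*, had a copy, and 8.98% of the 18310 listed genes with a RefSeq coding sequence had at least 1.

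The difference between the copies is visible in the sequences themselves. Each pair below shows the first 90 coding bases that align without a gap, read 5′ to 3′ from GRCm38, with capitals at bases that differ between gene and copy.
Krt8 gene, chr15:102004150-102004239, minus strand: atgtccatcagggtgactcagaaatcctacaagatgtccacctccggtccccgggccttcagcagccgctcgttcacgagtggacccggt
Krt8 copy, chr7:23357125-23357214, plus strand: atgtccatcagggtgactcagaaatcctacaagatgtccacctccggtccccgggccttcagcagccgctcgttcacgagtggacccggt
Krt18 gene, chr15:102028523-102028612, plus strand: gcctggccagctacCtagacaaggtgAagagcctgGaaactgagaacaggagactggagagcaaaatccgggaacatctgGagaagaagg
Krt18 copy, chr13:117458743-117458832, minus strand: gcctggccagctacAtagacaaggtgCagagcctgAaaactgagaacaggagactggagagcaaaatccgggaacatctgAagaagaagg

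The *Krt8* window, which begins at the start codon, has 0 differences from its copy, and the longest identical run over the coding sequence is 299 bases. The *Krt18* window, coding bases 245 to 334, has 4 differences, and its longest identical run is 54 bases. Of all stretches of 50 bases along the *Krt8* mRNA, 957 of 1756 (54.5%) occur exactly elsewhere in the genome, and of those of 100 bases 501 of 1706 (29.4%) do. For *Krt18* these numbers are 10 of 1351 (0.74%) and 0 of 1301. The other 5 genes have 0 such stretches at either length. A read on *Krt8* exons can thus have a second perfect place far more often than a read on *Krt18* exons, and the *Krt8* exon level is a less certain value than the others. The read length is not given in the sources used here. *Nlrp4e*, whose intron holds the *Krt8* copy, was listed at 0 for exons and introns in both mice. Its introns span 57704 bases and the copy 1458, so this rounded 0 says little about reads on the copy itself.

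As partners in the same filament, *Krt8* and *Krt18* were compared within each mouse. The exon FPKM of *Krt8* was 0.217 of that of *Krt18* in replicate 1 and 0.253 in replicate 2, averaging 0.235 ± 0.0261 (SD, n = 2). *Krt18* thus exceeded *Krt8* by 4.62-fold and 3.95-fold, a mean of 4.28 ± 0.476 (SD, n = 2). Adding the minor chains changed this little, as *Krt7* and *Krt8* together had an exon FPKM of 32.7 and 15.1 compared with 155.9 and 61.6 for *Krt18* and *Krt19* together. The introns gave another picture. The intron FPKM of *Krt8* was 0.3 in both mice and that of *Krt18* was 0.7 and 0.3, a ratio of 0.429 in replicate 1 and 1.0 in replicate 2. With the rounding of the deposited values, these ratios can lie from 0.333 to 0.538 and from 0.714 to 1.4, in both mice above the exon ratio. Introns of *Krt8* have no part in the processed copy. The part of the copy in the low exon ratio was not tested.

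**Figure D2:**
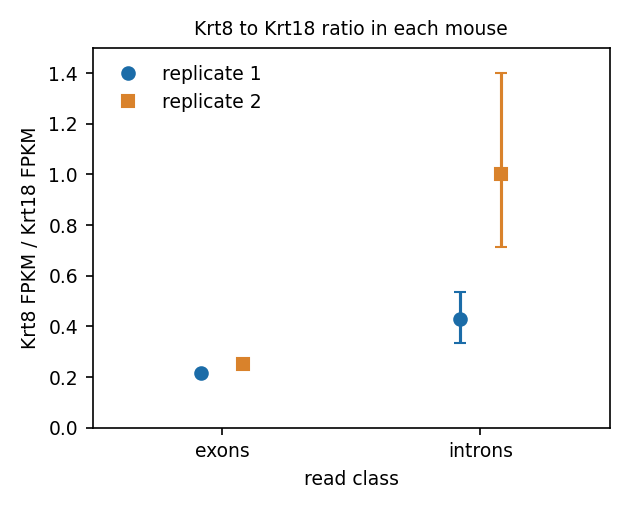
Ratio of *Krt8* to *Krt18* FPKM from exons and from introns in replicate 1 (circles) and replicate 2 (squares). Bars on the intron ratios mark the range that rounding to 1 decimal allows; the exon ratios are 0.217 and 0.253 and lie below these ranges.

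Intronic reads stem largely from RNA that is not yet spliced. *Epcam* had the highest intron FPKM of the 7 genes, 1.2 and 1.5, a mean of 1.35 ± 0.212 (SD, n = 2), over 13088 bases of introns. *Krt18* averaged 0.5 ± 0.283 (SD, n = 2) over 2411 bases, and *Krt19* and *Cdh1* were listed at 0.2 in both mice. *Krt7* and *Kit* were listed at 0.0 for introns in both mice, although the introns of *Kit* span 76554 bases. Exon FPKM of *Krt18* exceeded its intron FPKM 207-fold and 192-fold, a mean of 200 ± 10.7 (SD, n = 2). The ratio of its mean exon to its mean intron FPKM, 203, was higher than in 99.0% of 9535 genes. These are the expressed genes with intron FPKM above 0, and the median of this ratio among them was 15.3. *Epcam* had a ratio of 112 and 74.7 and *Cdh1* of 60.5 and 73.0, above 96.4% and 93.6% of these genes by the ratio of the means. For *Krt8* the ratio was 105 in replicate 1 and 48.7 in replicate 2, and for *Krt19* it was 54.5 and 20, with equal intron values in the mice. By the ratio of the means, *Krt19* was above 84.2% of these genes and *Krt8* above 95.1%. Each listed intron value can stand for any value within 0.05 of it, so these ratios and percentages are less certain than the SD shows.

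The 4 keratins were lower in replicate 2 by more than 2-fold in FPKM, and *Epcam* and *Cdh1* differed less on the deposited scale. The exon FPKM of *Krt18* was 2.52-fold lower in replicate 2, that of *Krt8* 2.15-fold lower, that of *Krt19* 2.73-fold lower and that of *Krt7* 2.6-fold lower. *Epcam* was 1.2-fold lower, and *Cdh1* was 1.21-fold higher on the deposited scale but after rescaling to equal sums had a log2 ratio of -0.73, where *Epcam* had -1.31. On the log2(FPKM + 1) scale, the ratios of replicate 2 to replicate 1 were -1.32 for *Krt18*, -1.25 for *Krt19* and -1.05 for *Krt8*, compared with -0.26 for *Epcam* and 0.25 for *Cdh1*. Among the 5 expressed members, 3 were more than 2-fold lower in replicate 2 and 0 were more than 2-fold higher. Centering on the median of all expressed genes left 2, with *Krt8* at -0.98. Among the 9845 genes, 4.82% were more than 2-fold lower and 1.08% more than 2-fold higher. *Krt7* and *Kit* were below this filter and had log2 ratios of -0.62 and 0.12, which the added 1 draws toward 0. In consequence *Krt18* was 1.08 times *Epcam* in replicate 1 and 0.514 times in replicate 2. These are 2 mice of the same genotype and stage, and no test was made.

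The introns did not follow the exons for each keratin. For *Krt18*, the intron FPKM of replicate 2 was 0.429 times that of replicate 1, a ratio that can lie from 0.333 to 0.538 with rounding and so includes the exon ratio of 0.397. For *Krt8* and *Krt19* the intron values were equal, and rounding allows ratios from 0.714 to 1.4 and from 0.6 to 1.67, which do not include the exon ratios of 0.465 and 0.367. *Epcam* introns were 1.25 times higher in replicate 2 while its exons were at 0.836. The number of reads behind these low intron values is not given, so their counting error is unknown.

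Other keratins were also lower in replicate 2. Of 55 keratin genes in the files, 37 were listed at 0 in both mice and 8 were expressed. All 8, which include the members *Krt8*, *Krt18* and *Krt19*, were lower in replicate 2. Of the 8, 6 were lower by more than 2-fold (5 after centering on the median), compared with 4.82% of all expressed genes. These 6 were the members *Krt8*, *Krt18* and *Krt19*, and *Krt14*, *Krt15* and *Krt17*. The median log2 ratio of the 8 was -1.18, and -0.71 after the GC correction described below. Outside the members, *Krt14* had an exon FPKM of 17.9 and 5.4, *Krt15* of 15.5 and 6.6, and *Krt17* of 11.1 and 3.5, which are the highest 3 of the other keratins and are chains of basal and stratified epithelium. *Krt5*, the type II partner of *Krt14*, had 6.6 and 3.5. *Krt23* was the exception, with 2.1 and 2.0, which rounding alone could make equal. The summed exon FPKM of all keratins was 244.9 in replicate 1 and 99.3 in replicate 2. Within this sum the joint share of *Krt7*, *Krt8*, *Krt18* and *Krt19* hardly moved, at 77.0% and 77.2%, a mean of 77.1% ± 0.162 (SD, n = 2). *Krt18* alone held 59.2% and 58.0%. The 4 luminal keratins exceeded the sum of *Krt5*, *Krt14* and *Krt17*, which leaves out *Krt15*, by 5.30-fold and 6.19-fold.

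GC content moved with this difference. Across genes, GC-rich exons were lower in replicate 2, and the exons of *Krt18*, *Krt8*, *Krt19* and *Krt7* have a GC content of 56.4%, 56.9%, 57.2% and 58.2%, compared with 52.4% for *Epcam*, 50.7% for *Cdh1*, 48.1% for *Kit* and a median of 50.2% over all expressed genes. The 405 genes with a GC content from 56.4% to 57.2% had a median log2 ratio of -0.55, and 12.6% of them were more than 2-fold lower. After a lowess fit to GC content was subtracted, the log2 ratios were -0.84 for *Krt18*, -0.70 for *Krt19* and -0.53 for *Krt8*, so that 0 of the members remained more than 2-fold apart, compared with 0.793% of all genes more than 2-fold lower after the same correction. *Epcam* then had -0.06 and *Cdh1* 0.35. After the correction, 1.54% of expressed genes had a lower ratio than *Krt18*, 2.89% than *Krt19* and 7.09% than *Krt8*. Before it, these shares were 1.44%, 2.06% and 4.2%. Of the 8 keratins, 7 still had a value below 0 and 1, *Krt14* at -1.02, was more than 2-fold lower.

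**Figure D3:**
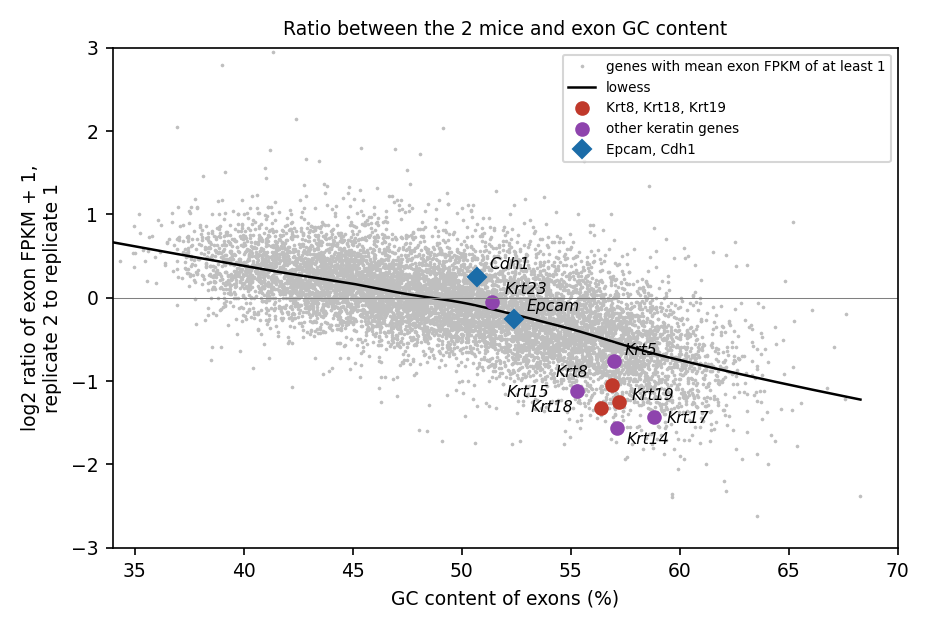
Log2 ratio of exon FPKM + 1 of replicate 2 to replicate 1 against the GC content of exons (%), for expressed genes (gray points) with the lowess fit (line); 3 genes lie outside the plotted range. *Krt8*, *Krt18* and *Krt19* and 4 of the other 5 keratins lie below the line, whereas *Epcam* and *Cdh1* lie near or above it.

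Beta-, alpha- and p120-catenin, which bind E-cadherin, had higher exon FPKM than *Cdh1* in both mice. *Ctnnb1*, which encodes beta-catenin, the link from E-cadherin to alpha-catenin, had an exon FPKM of 63.8 and 64.9, and exceeded *Cdh1* 5.27-fold and 4.45-fold. *Ctnna1* (alpha-catenin) had 22.2 and 18.2, and *Ctnnd1* (p120-catenin) 20.4 and 21.2. *Jup* (plakoglobin, or gamma-catenin) had 21.8 and 14.3, a log2 ratio of -0.58. Of the 9 genes listed for the cadherin-catenin complex and nectins, all 9 were expressed, compared with 9845 of all 20515 genes. Of these 9, 1 gene, *Nectin2* with 12.8 and 5.6, was more than 2-fold lower in replicate 2, compared with 4.82% of all expressed genes. Its log2 ratio was -1.06 before and -0.44 after correction for its exon GC content of 58.1%. The median log2 ratio of the 9 genes was -0.27. *Cdh1* exceeded *Cdh3* (P-cadherin, of myoepithelial cells) 8.64-fold and 7.68-fold, while *Cdh5*, the cadherin of endothelium, had 17.3 and 17.4 and so a level similar to that of *Cdh1*. *Cdh2* (N-cadherin) was listed at 0.1 and 0.2. Of 7 other cadherins, 3 were expressed, with a median log2 ratio of 0.01. Of the 6 transcription factors known as repressors of *Cdh1*, *Zeb1* (2.0 and 2.5), *Zeb2* (2.0 and 2.4) and *Snai2* (1.1 and 2.2) were expressed, and *Snai1*, *Twist1* and *Twist2* did not exceed 0.5 in either mouse.

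Desmosomes and cytolinkers anchor keratin filaments. Of 10 desmosome genes, 6 were expressed, with a median log2 ratio of -0.13. Past 2-fold were 0 of them, near the share over all expressed genes (4.82% lower and 1.08% higher). *Perp* was the highest, at 46.6 and 71.4, followed by *Jup* (plakoglobin) at 21.8 and 14.3, whereas *Dsp* (desmoplakin), the protein that binds keratins, had only 2.1 and 1.5. The desmosomal cadherins *Dsg3* and *Dsc3* were listed at 0 in both mice, and *Dsg2*, the desmoglein of simple epithelia, had 2.5 and 4.9. Of 6 cytolinker genes, 4 were expressed, with a median log2 ratio of -0.61. *Plec* (plectin), which binds keratins to hemidesmosomes, had 11.9 and 3.3, and was the 1 gene of these past 2-fold. Its exon GC content is 61.4%, and its log2 ratio was -1.58 before and -0.75 after the GC correction.

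Partners of EPCAM were expressed below the level of *Epcam* itself. *Cldn7*, a claudin that forms a complex with EPCAM, had an exon FPKM of 23.3 and 18.5, so that *Epcam* exceeded it 5.75-fold and 6.05-fold. The transmembrane protease inhibitors *Spint1* (31.2 and 32.1) and *Spint2* (50.3 and 41.4) and the protease *St14* (matriptase; 66.7 and 37.1), which cleaves EPCAM, were likewise expressed. The 6 genes of this list that were used had a median log2 ratio of -0.12. Past 2-fold were 0 of them, near the share over all expressed genes (4.82% lower and 1.08% higher). Among factors that set the epithelial program, *Ehf* (189.7 and 161.5), *Grhl1* (39.4 and 40.2) and the splicing regulator *Esrp1* (19.9 and 25.2) were the highest of 9. Of the 7 expressed, 0 were past 2-fold, again near that share.

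**Figure D4:**
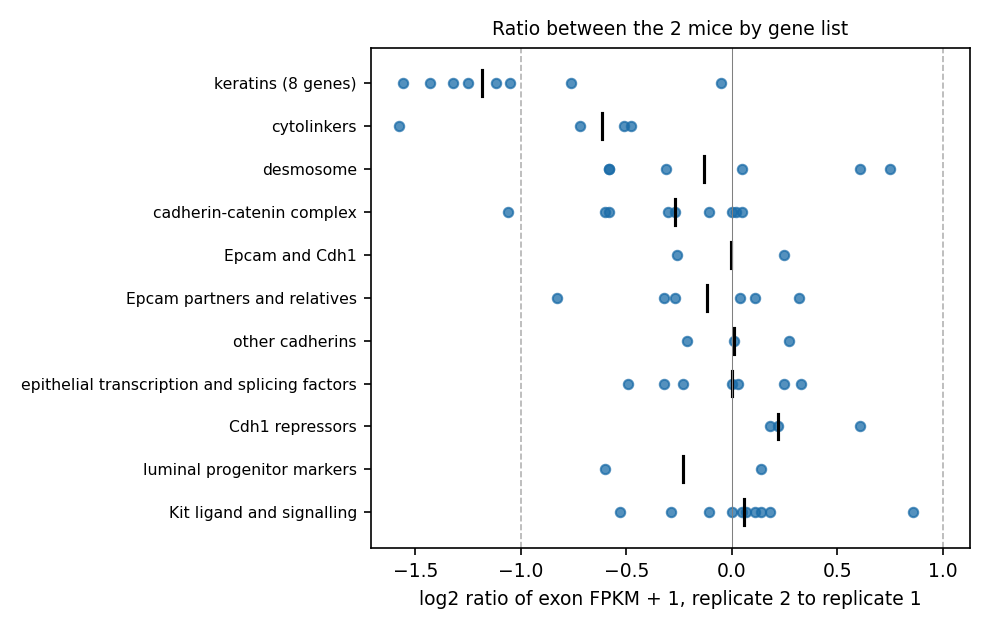
Log2 ratio of exon FPKM + 1 of replicate 2 to replicate 1 for each expressed gene, by list, with a black bar at the median and dashed lines at 2-fold. The keratins have a median of -1.18, the cytolinkers of -0.61, and the other lists plotted lie between -0.27 and 0.22; markers of other cell types are not plotted, and among these the myoepithelial list has -0.60.

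*Kit* was near 0 although its ligand and its signaling partners were present. *Kitl*, which encodes stem cell factor, had an exon FPKM of 5.3 and 10.4, compared with 0.2 and 0.3 for *Kit*. Of 10 genes for the ligand and signaling proteins, all 10 were expressed, compared with 9845 of all 20515 genes, and their median log2 ratio was 0.06. *Pik3r1*, the regulatory subunit of PI3 kinase, was the highest at 50.5 and 54.5. Of 5 other genes known as markers of luminal progenitors, *Elf5*, which also drives alveolar differentiation, had 185.8 and 204.8 and *Cd14* had 26.5 and 17.2, whereas *Aldh1a3* (1.0 and 0.3), *Itgb3* (0.7 and 0.7) and *Itga2* (0.2 and 0.1) had a mean below 1. Mast cells also carry KIT, and the 8 mast cell markers summed to 5.0 and 4.8. *Mcpt4* had 2.1 and 1.0 and *Cma1* 1.5 and 1.3, whereas *Cpa3* was higher in replicate 2, with 0.5 and 1.6. The part of mast cells in the *Kit* signal was not tested.

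The genes closest to each member were found by the distance over 4 values, log2 exon FPKM + 1 and log2 intron FPKM + 0.1 in each of the 2 mice. *Vps25* (exon FPKM of 12 and 15) was closest to *Cdh1* at a distance of 0.038, *Fcgrt* (10.5 and 3.9) to *Krt19* at 0.057, *Mea1* (26.7 and 14.4) to *Krt8* at 0.23 and *Atp5o* (123.0 and 114.8) to *Epcam* at 0.23. *Krt18* had no such close gene, the nearest being *Atp5k* (116.9 and 80.6) at 0.84. *B4gat1* and *Chst2* (1.4 and 0.6 each) were closest to *Krt7* at 0.11. *Krt7* and *Kit* lie below the filter applied to the candidates, so genes under it were not compared with them, and the nearest gene to *Kit*, *Moxd1*, was at 0.96.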

How the data were processed

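Total RNA from L10 mammary glands of 2 wt/Wap-Tbrg4 mice was sequenced from stranded libraries. The authors mapped reads to mm10 with STAR, counted them on collapsed exons and on introns of UCSC known genes with HTSeq, and deposited FPKM values generated with DESeq2, rounded to 1 decimal. Versions and the handling of multiply mapped reads are not given in the sources used here. Rows without a usable gene symbol (35) were not used.

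Means and SD over the mice were calculated without further scaling. Ratios between the mice used pseudocounts of 1 (exons) and 0.1 (introns) and genes averaging 1 FPKM or more in exons. Exon and intron lengths and GC came from curated RefSeq models on GRCm38, which matched 99.7% of genes. A lowess over 30% of the genes, checked on simulated data, gave the GC correction. Copies were searched by aligning coding sequences to the reference chromosomes with minimap2 2.31, and exact matches of 50 and 100 bases were counted on both strands. No amino acid sequences are shown.

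The members and the gene lists were chosen with earlier results of these data known. Named genes are the members, genes of these lists, the 3 other keratins with the highest mean and the 3 genes nearest each member; *Krt23* was named after its values were seen. Alternatives were the pseudocount, the filter, the scaling (equal sums, or centering on the median), the GC correction, the mean, the definition of a copy and each mouse left out. Python 3.11.15 with numpy 2.4.6, pandas 2.3.3, statsmodels 0.14.6, numba 0.67.0 and matplotlib 3.10.9 was used.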

Additional observations from a re-analysis of the deposited data

How the results depend on the processing

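Of 180 alternatives, 144 left a value the same, that is within 1 SD of the 2 mice or the rounding step for a level, within 0.1 for a log2 ratio and within 1.5-fold for a count. With 2 mice, a value without either mouse, a geometric mean and a ratio of the means always lie within 1 SD or the rounding step. Such alternatives are counted among the 144 but could not have moved, so they show no stability. No paired analysis was possible because the 2 mice form a single group. Rescaling each mouse to a summed exon FPKM of 1000000 moved the median log2 ratio of all genes to -0.90 and gave -2.36 for *Krt18*, -2.09 for *Krt19*, -2.04 for *Krt8*, -0.98 for *Krt7*, -1.31 for *Epcam*, -0.73 for *Cdh1* and -0.08 for *Kit*, so that the last 2 turned sign. Relative to that median these are -1.46, -1.19, -1.14, -0.08, -0.41, 0.17 and 0.82. The same rescaling gave a mean exon FPKM of 11.2 for *Cdh1*. A pseudocount of 0.1 gave -1.42 for *Krt19*, -1.22 for *Krt7* and 0.42 for *Kit*. The GC correction gave -0.84 for *Krt18*, -0.70 for *Krt19*, -0.53 for *Krt8*, 0.01 for *Krt7* and -0.06 for *Epcam*, and 0 members, 1 keratin and 188 genes past 2-fold. The 581 genes past 2-fold in either direction became 1092 with a pseudocount of 0.1 and 231 with a mean FPKM of at least 10. The median of the members, -1.05, became -0.66 with a mean FPKM of at least 10, -0.62 without the filter and -0.53 after the GC correction. With an identity of at least 90%, *Krt18* has 1 copy. Alternatives for the count of keratins were chosen after seeing the data. Of the intron log2 ratios and exon to intron ratios, 11 values moved, and the cause was not tested.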

Other observations

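Markers of other cell types in the same glands were summed over lists. Of 10 myoepithelial markers, 9 averaged 1 FPKM or more in exons, and the list summed to 258.2 in replicate 1 and 185.8 in replicate 2. The keratins *Krt14* and *Krt17* were the 2 of these more than 2-fold lower in replicate 2, and the list had a median log2 ratio of -0.60. *Myh11* (69.2 and 38.8, log2 ratio -0.82), *Krt5* (6.6 and 3.5, -0.76) and *Cnn1* (40.1 and 26.2, -0.60) were lower by less, whereas *Tagln* (79.5 and 68.6), *Mylk* (14 and 14.9) and *Oxtr* (18.9 and 23.6), the oxytocin receptor that triggers milk ejection, had log2 ratios of -0.21, 0.08 and 0.31. *Acta2* was listed at 0 for exons and introns in both mice, beside the levels of *Tagln*, *Myh11* and *Cnn1* above. Whether this 0 stands for absent transcripts or for the way reads were counted was not tested. The 7 fibroblast markers summed to 198.2 and 185.6, with members in opposite directions: *Dcn* (42.9 and 78.4) and *Lum* (11.1 and 18.6) were higher in replicate 2, and *Col1a1* (23.5 and 11.2, past 2-fold), *Col1a2* (20.5 and 10.2) and *Col3a1* (71.2 and 43.6) were lower. The 5 endothelial markers summed to 36.0 and 29.1, the 6 leukocyte markers to 14.7 and 11.3 and the 5 adipocyte markers to 634.1 and 719.5, most of it *Fabp4* (501.7 and 564.0). *Plin1* (7.8 and 2.6, log2 ratio -1.29) was the 1 adipocyte marker past 2-fold. The median log2 ratios were -0.34 for fibroblast, -0.20 for endothelial, -0.40 for leukocyte and 0.08 for adipocyte markers. After the GC correction these medians were -0.11, -0.20, -0.21 and -0.06, and that of the myoepithelial list was -0.23. *Col1a1* then had -0.33 and *Plin1* -0.46, so neither stayed past 2-fold, while *Dcn* at 0.62 and *Lum* at 0.40 were still higher in replicate 2. The part of the other cell types in the keratin values was not tested. The skin markers used summed to 0.8 and 0.8, with *Krt1* and *Ivl* listed at 0 in both mice.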
